A study of Mus musculus with 9 samples.

Results

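A set of 10 amino acid transporter genes was followed across 9 RNA sequencing libraries of mouse splenic CD4+ T cells: Slc7a5, Slc3a2, Slc1a5, Slc7a1, Slc7a6, Slc38a1, Slc38a2, Slc1a4, Slc6a9 and Slc7a11. They were chosen by name, as genes of amino acid uptake, with earlier results of these data known. From 55573 gene identifiers in each count table, all 10 were among the 13328 genes with enough counts to be tested. Slc6a9 passed that count filter only through activated libraries, and Slc7a11 only through those at 39 °C. The groups were 3 naive libraries, labelled untreated, 3 libraries activated for 3 hours at 37 °C and 3 activated for 3 hours at 39 °C, a febrile temperature. Activation was by plate-bound antibodies to CD3, part of the T cell receptor complex, and to the costimulatory receptor CD28. Spleen cells entered culture, in RPMI1640 medium supplemented with serum, L-glutamine and β-mercaptoethanol. Strain and age of the mice are not given in the sources used here, nor is the step at which CD4+ cells were isolated, whether naive cells were cultured, or whether replicates are different mice. The p-values therefore measure the spread between these libraries, which may be technical.

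Amino acids cross the plasma membrane through carriers of several families that differ in substrates and driving force. The LAT and y+LAT light chains and the cystine carrier xCT reach the cell surface bound by a disulphide bridge to 1 heavy chain, 4F2hc, the product of Slc3a2. Sodium-coupled carriers of the SNAT type concentrate glutamine and other small neutral amino acids in the cell. Exchangers such as LAT1 trade part of that pool for leucine and other large neutral amino acids. ASCT2 is a sodium-dependent exchanger of glutamine and other neutral amino acids. T cells raise such uptake on activation, and loss of LAT1 or ASCT2 impairs their growth and differentiation. Several of these genes are known targets of ATF4, a transcription factor made in response to amino acid shortage and other stress, and of Myc.

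The naive libraries held 13647575 to 17605549 counts, the 37 °C libraries 13022415 to 14562852 and the 39 °C libraries 12647692 to 16267632. Levels are given as CPM, which sets a count against the TMM-scaled library size, with the SD over 3 libraries. Log2 fold changes are given with the standard error of a quasi-likelihood fit (edgeR) of all 9 libraries, and a gene was called higher or lower at a Benjamini-Hochberg adjusted p below 0.05. Markers of CD4+ T cells, 12 of 12 detected in each group, summed to 6452 to 8421 CPM in naive libraries, 7210 to 7587 at 37 °C and 7450.0 to 8106 at 39 °C. These sums hide moves in both directions. Against naive cells 3 of the 12 were called higher and 5 lower at 37 °C, and 2 and 4 at 39 °C. Cd4 itself was called lower in both contrasts (-0.39 and -0.38).

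Activated and naive cells were compared to find what differed after 3 hours of stimulation. As it is not given whether naive cells were cultured, stimulation cannot be told apart from culture and handling here. All 10 transporter genes rose at 37 °C, with log2 fold changes from 0.27 to 6.66 and a median of 2.62. All 10 also rose at 39 °C, from 0.18 to 6.38, with a median of 2.49. Of all genes tested, 30.9% were called higher and 31.8% lower at 37 °C, and 29.2% higher and 29.8% lower at 39 °C, and the median over all genes was -0.002 and -0.003. Every activated library lay above every naive one for all 10 genes, as it did for 32.7% of all genes at 37 °C and 30.8% at 39 °C. These contrasts share the naive libraries. As the 10 genes were chosen with earlier results of these data known, setting their counts beside these shares is no test of the set. Together the 10 genes took 0.105% ± 0.00753 of all counts in the naive group (SD, n = 3), 0.371% ± 0.00585 at 37 °C and 0.356% ± 0.00593 at 39 °C. In bulk RNA, fewer cells of a type and less RNA per cell cannot be told apart. Markers of other cells moved with activation: B cell markers summed to 814 to 988 CPM in naive libraries, 289 to 302 at 37 °C and 315 to 331 at 39 °C, with 10 of 12 called lower, Fcer2a called higher in both contrasts (1.34 and 1.55) and none of the 12 at 0. Erythroid and platelet markers summed to 135 to 226 CPM, 2.79 to 3.29 and 2.94 to 4.18, with the platelet genes Pf4 and Ppbp among those at 0 in both activated groups and Pf4 at 0 in the naive group too. Myeloid markers summed to 24.9 to 32.7 CPM, 13.9 to 15.7 and 13.2 to 15.6, with S100a9 at 0 at 37 °C and Cd14 at 0 at 39 °C. Markers of CD8 T and NK cells summed to 66.0 to 89.0 CPM, 38.0 to 41.1 and 35.2 to 35.8, with none at 0. Their part in the activation results was not tested.

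**Figure D1:**
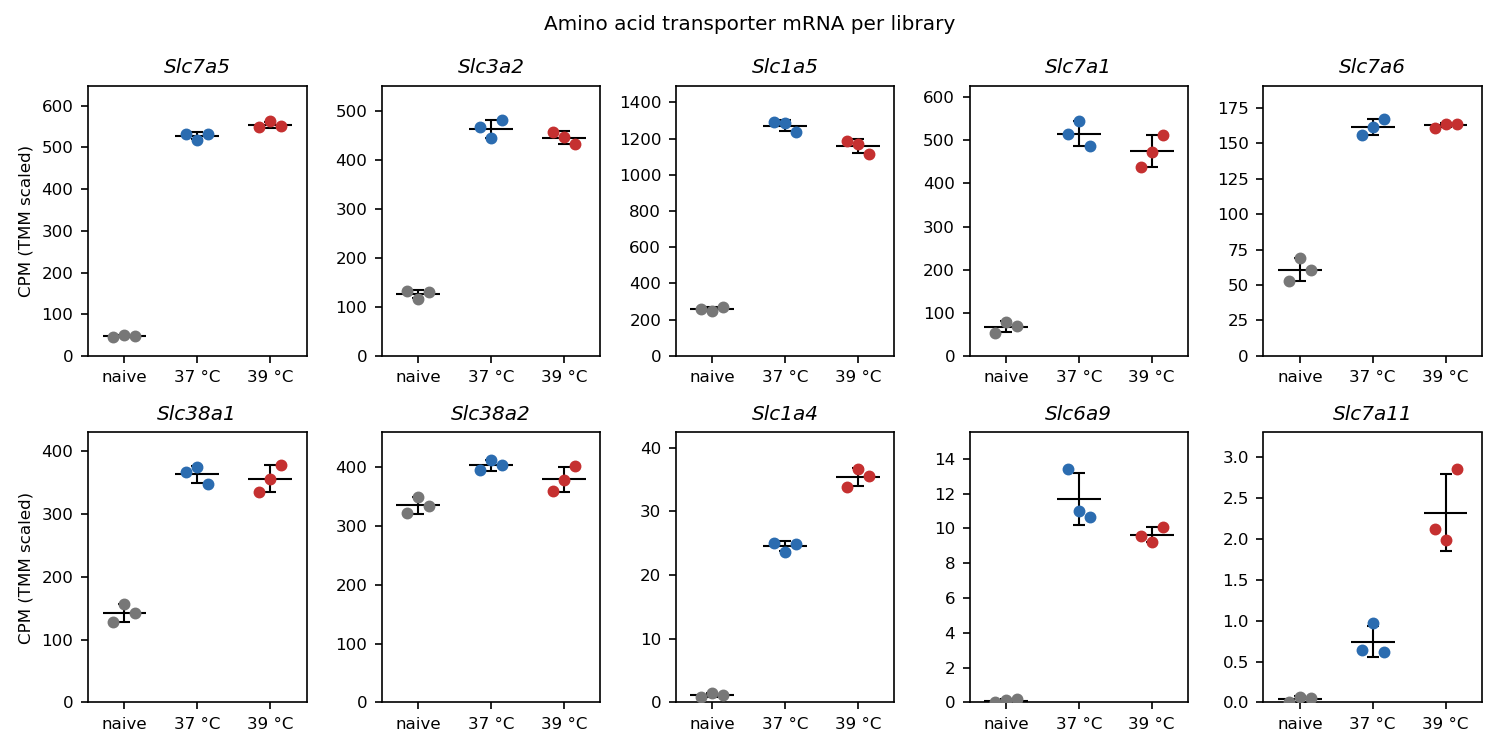
Level of each of the 10 transporter genes in every library, in CPM on a linear axis from 0, with 1 point per library, a line at the mean and a bar of 1 SD each way. Each gene's 3 naive libraries sit below all 6 activated ones, with Slc38a2 at 321 to 349 CPM against 358 to 412.

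Slc3a2 encodes 4F2hc, the heavy chain shared by the LAT, y+LAT and xCT carriers. Its naive libraries held 132, 116 and 131 CPM, the 37 °C libraries 467, 445 and 482, and the 39 °C libraries 458, 448 and 432. Activated libraries were all above naive ones, while those at 37 °C and 39 °C overlapped. The rise over naive cells was 1.88 ± 0.07 at 37 °C, or 3.68-fold (adjusted p = 1.06e-09, edgeR), and 1.82 ± 0.07 at 39 °C (adjusted p = 1.44e-09, edgeR). Slc3a2 (ENSMUSG00000010095) lies on the minus strand of chromosome 19 at 8706882 to 8723369 (GRCm38, GENCODE M21, as for all genes here).

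Slc7a5 encodes LAT1, the light chain that carries leucine, tryptophan, methionine and other large neutral amino acids. It stood at 44.8, 50.0 and 48.7 CPM in naive libraries, at 533, 518 and 532 at 37 °C, and at 549, 563 and 552 at 39 °C. No library of one group overlapped those of another. All 39 °C libraries lay above those at 37 °C, as for 10.7% of all genes, and that difference was not called (adjusted p = 0.863, edgeR). The rise over naive cells was 3.46 ± 0.07 at 37 °C, or 11.0-fold (adjusted p = 8.17e-12, edgeR), and 3.53 ± 0.07 at 39 °C, or 11.6-fold (adjusted p = 7.68e-12, edgeR). Slc7a5 (ENSMUSG00000040010) is on the minus strand of chromosome 8 at 121881150 to 121907694.

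Slc7a6 encodes y+LAT2, the light chain that exchanges cationic amino acids such as arginine for neutral amino acids and sodium. Its levels were 52.9, 69.2 and 60.7 CPM in naive libraries, 156, 162 and 167 at 37 °C, and 161, 164 and 164 at 39 °C. Naive libraries of Slc7a6 overlapped those of Slc7a5 per kilobase of exon, and the rise was 1.41 ± 0.09 at 37 °C (adjusted p = 5.42e-08, edgeR) and 1.42 ± 0.09 at 39 °C (adjusted p = 5.72e-08, edgeR). Per kilobase of exon, Slc7a5 held 0.890 to 1.04 times the level of Slc7a6 in naive libraries, 3.92 to 4.22 times at 37 °C and 4.16 to 4.24 times at 39 °C. Slc7a6 (ENSMUSG00000031904) is on the plus strand of chromosome 8 at 106168857 to 106198706.

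Slc1a5 encodes ASCT2, a sodium-dependent exchanger of glutamine and other neutral amino acids. It held 259, 248 and 267 CPM in naive libraries, 1291, 1286 and 1234 at 37 °C, and 1189, 1169 and 1116 at 39 °C. The 3 groups did not overlap. All 39 °C libraries lay below those at 37 °C, as for 10.3% of all genes, and that difference was not called (adjusted p = 0.700, edgeR). Over naive cells Slc1a5 rose by 2.30 ± 0.07 at 37 °C, or 4.92-fold (adjusted p = 1.79e-10, edgeR), and by 2.16 ± 0.07 at 39 °C, or 4.48-fold (adjusted p = 2.91e-10, edgeR). Slc1a5 (ENSMUSG00000001918) is on the plus strand of chromosome 7 at 16781340 to 16798274.

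Slc38a1 and Slc38a2 encode SNAT1 and SNAT2, sodium-coupled importers of glutamine, alanine and other small neutral amino acids. Slc38a1 stood at 128, 157 and 142 CPM in naive libraries, at 367, 375 and 348 at 37 °C, and at 335, 356 and 378 at 39 °C. It rose by 1.35 ± 0.09 at 37 °C (adjusted p = 6.25e-08, edgeR) and by 1.32 ± 0.09 at 39 °C (adjusted p = 8.44e-08, edgeR). Slc38a2 stood at 321, 349 and 333 CPM in naive libraries, at 394, 412 and 402 at 37 °C, and at 358, 378 and 401 at 39 °C. Its rise was the smallest of the 10, 0.27 ± 0.07 at 37 °C (adjusted p = 0.00465, edgeR) and 0.18 ± 0.07 at 39 °C (adjusted p = 0.0383, edgeR). These Slc38a2 calls depended on the processing: with upper-quartile scaling, which moves the median of all genes to -0.137 and -0.129, the values were 0.13 (adjusted p = 0.104) and 0.05 (adjusted p = 0.515), and the 39 °C call was lost under 10 of 17 alternatives, among them leaving out naive replicate 3, any 37 °C library or 39 °C replicate 2 or 3. Per kilobase of exon, Slc38a1 held 0.204 to 0.232 times the level of Slc38a2 in naive libraries, 0.444 to 0.477 times at 37 °C and 0.479 to 0.484 times at 39 °C. By the longest transcripts, a length chosen for this ratio after the data were seen, these ranges were 0.334 to 0.380, 0.728 to 0.784 and 0.787 to 0.795. Both genes are on the minus strand of chromosome 15, Slc38a1 (ENSMUSG00000023169) at 96571418 to 96642913 and Slc38a2 (ENSMUSG00000022462) at 96687392 to 96699730.

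Slc7a1 encodes CAT1, the cationic carrier that takes up arginine and lysine without the heavy chain. It held 53.5, 79.1 and 69.6 CPM in naive libraries, 514, 545 and 487 at 37 °C, and 439, 472 and 513 at 39 °C. The activated groups overlapped, and both lay above the naive libraries. The rise of 2.93 ± 0.13 at 37 °C, or 7.64-fold (adjusted p = 2.44e-09, edgeR), and of 2.82 ± 0.13 at 39 °C (adjusted p = 3.51e-09, edgeR) was larger than that of Slc7a6, the other carrier of cationic amino acids among the 10. That difference between genes was not tested. Slc7a1 (ENSMUSG00000041313) is on the minus strand of chromosome 5 at 148327410 to 148399904.

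Slc1a4, Slc6a9 and Slc7a11 were low in naive cells. Slc1a4 encodes ASCT1, a carrier of alanine, serine, cysteine and threonine, and held 0.894, 1.40 and 1.24 CPM in naive libraries, 25.1, 23.6 and 24.8 at 37 °C, and 33.8, 36.6 and 35.5 at 39 °C. It rose by 4.37 ± 0.13 at 37 °C, or 20.6-fold (adjusted p = 1.17e-10, edgeR), and by 4.89 ± 0.13 at 39 °C, or 29.7-fold (adjusted p = 4.14e-11, edgeR). Per kilobase of exon, Slc1a5 held 167 to 273 times the level of its relative Slc1a4 in naive libraries, 46.7 to 51.2 times at 37 °C and 29.6 to 33.1 times at 39 °C, so that the 3 groups did not overlap. By the longest transcripts the ranges were 248 to 406, 69.5 to 76.1 and 44.0 to 49.2. Slc1a4 (ENSMUSG00000020142) is on the minus strand of chromosome 11 at 20302180 to 20332713.

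Slc6a9 encodes GlyT1, a sodium- and chloride-coupled glycine importer. It had 0, 2 and 3 counts in naive libraries, 188, 160 and 137 at 37 °C, and 154, 116 and 145 at 39 °C, which is 0, 0.140 and 0.169 CPM, then 13.4, 11.0 and 10.6 CPM, then 9.59, 9.22 and 10.1 CPM. It rose by 6.66 ± 0.31 at 37 °C (adjusted p = 4.14e-09, edgeR) and 6.38 ± 0.32 at 39 °C (adjusted p = 8.33e-09, edgeR), the largest fitted values of the 10. With 5 naive counts over the group, the ratio of pooled CPM was 109 at 37 °C, with an exact 95% interval of 46.4 to 337.5, and 89.9 at 39 °C, with an interval of 38.2 to 278. These intervals cover counting error only. Slc6a9 (ENSMUSG00000028542) is on the plus strand of chromosome 4 at 117834506 to 117875198, where B4galt2, Ccdc24 and Gm17114 overlap it on the opposite strand. B4galt2 had 3, 24 and 14 counts over the naive, 37 °C and 39 °C groups, Ccdc24 had 2, 8 and 6, and Gm17114 had 0. Without a stated strand setting, reads of Slc6a9 and of these partners cannot be told apart.

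Slc7a11 encodes xCT, the light chain that imports cystine in exchange for glutamate and so feeds glutathione synthesis. It had 0, 1 and 1 counts in naive libraries, 9, 14 and 8 at 37 °C, and 34, 25 and 41 at 39 °C, or 0, 0.0701 and 0.0564 CPM, 0.643, 0.965 and 0.621 CPM, and 2.12, 1.99 and 2.86 CPM. The ratio of pooled CPM to naive was 17.4 at 37 °C, from 31 counts against 2, with an exact 95% interval of 4.44 to 150.3 (adjusted p = 0.000168, edgeR). At 39 °C it was 54.1, from 100 counts against 2, with an interval of 14.6 to 453 (adjusted p = 1.52e-06, edgeR). Slc7a11 (ENSMUSG00000027737) spans 49892526 to 50443614 on the minus strand of chromosome 3. The antisense gene Gm37854 within this span had 0 counts in each group.

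**Figure D2:**
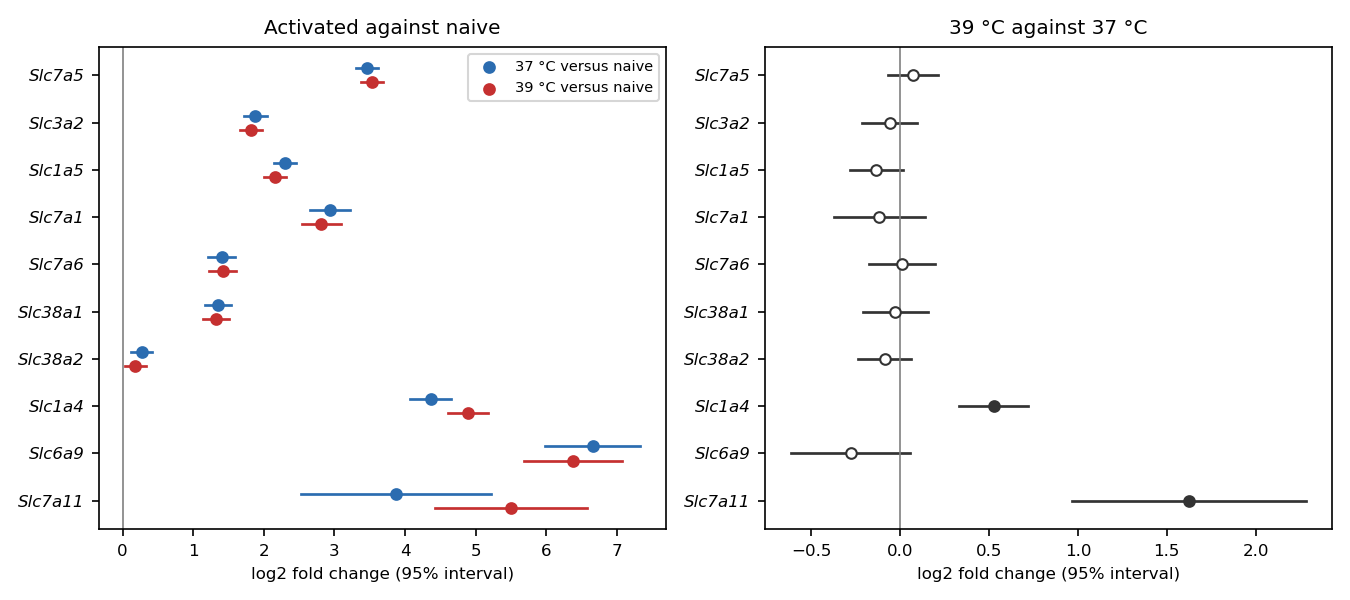
Log2 fold changes of the 10 transporter genes with their 95% intervals, for 37 °C against naive, 39 °C against naive and 39 °C against 37 °C. All activation values lie above 0, while for 39 °C against 37 °C the filled points, for called genes, are Slc1a4 (0.53) and Slc7a11 (1.62), and the other 8 intervals include 0.

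Levels of different genes were compared per kilobase of exon, as the union of a gene's exons. In naive cells Slc1a5 led at 61.9 ± 2.27 CPM per kb, followed by Slc38a2 at 37.8 ± 1.56 and Slc3a2 at 35.8 ± 2.45, whose libraries overlapped. Slc7a6 at 13.3 ± 1.78 and Slc7a5 at 12.9 ± 0.725 also overlapped, and Slc38a1 at 8.26 ± 0.868, Slc7a1 at 5.85 ± 1.12 and Slc1a4 at 0.30 ± 0.066 came next. Slc6a9 and Slc7a11 were last and overlapped. After activation at 37 °C the order was Slc1a5 at 304 ± 7.53 CPM per kb, Slc7a5 at 142 ± 2.20, Slc3a2 at 132 ± 5.21, then Slc38a2 at 45.6 ± 1.03 and Slc7a1 at 44.7 ± 2.49, which overlapped. Slc7a6 at 35.4 ± 1.26, Slc38a1 at 21.1 ± 0.802, Slc1a4 at 6.25 ± 0.196, Slc6a9 at 2.28 ± 0.295 and Slc7a11 at 0.0534 ± 0.0138 followed without overlap. At 39 °C the order was the same, with Slc1a5 at 277 ± 9.10 CPM per kb, Slc7a5 at 149.6 ± 1.90, Slc3a2 at 126 ± 3.66 and Slc7a11 at 0.167 ± 0.0337. Slc7a5 moved from percentile 70.7 of all tested genes in naive cells to 98.1 in both activated groups, and Slc7a1 from 50.9 to 91.9 and 91.0. The order of neighbours depends on the length used. With the longest transcript in place of the exon union, Slc3a2 came before Slc7a5 at 37 °C (165 against 150.1 CPM per kb) and at 39 °C (158.6 against 157.7). Slc38a1 then passed Slc7a6 in each group, with 19.6 against 16.2 CPM per kb in naive cells, where it also passed Slc7a5 at 13.6, and 50.0 against 43.1 at 37 °C. Slc7a1 passed Slc38a2 in both activated groups, with 71.8 against 65.9 CPM per kb at 37 °C.

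The makeup of the 10 genes differed between naive and activated cells. Of their summed CPM per kb, Slc38a2 held 21.5% ± 0.715 before activation (SD, n = 3), 6.21% ± 0.166 after it at 37 °C and 6.09% ± 0.385 at 39 °C. Slc7a5 held 7.32% ± 0.289, 19.4% ± 0.319 and 21.2% ± 0.229, and Slc1a5 held 35.1% ± 1.33, 41.5% ± 0.791 and 39.4% ± 0.997. Slc3a2 held 20.3% ± 1.57 in naive cells and 17.9% at either temperature. In every activated library the SNAT2 gene held a smaller share than in any naive one, and the LAT1 gene a larger share. By the longest transcripts the mean share of Slc38a2 was 21.8%, 6.53% and 6.45%, and that of Slc7a5 was 5.42%, 14.9% and 16.4%. These shares carry no test.

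**Figure D3:**
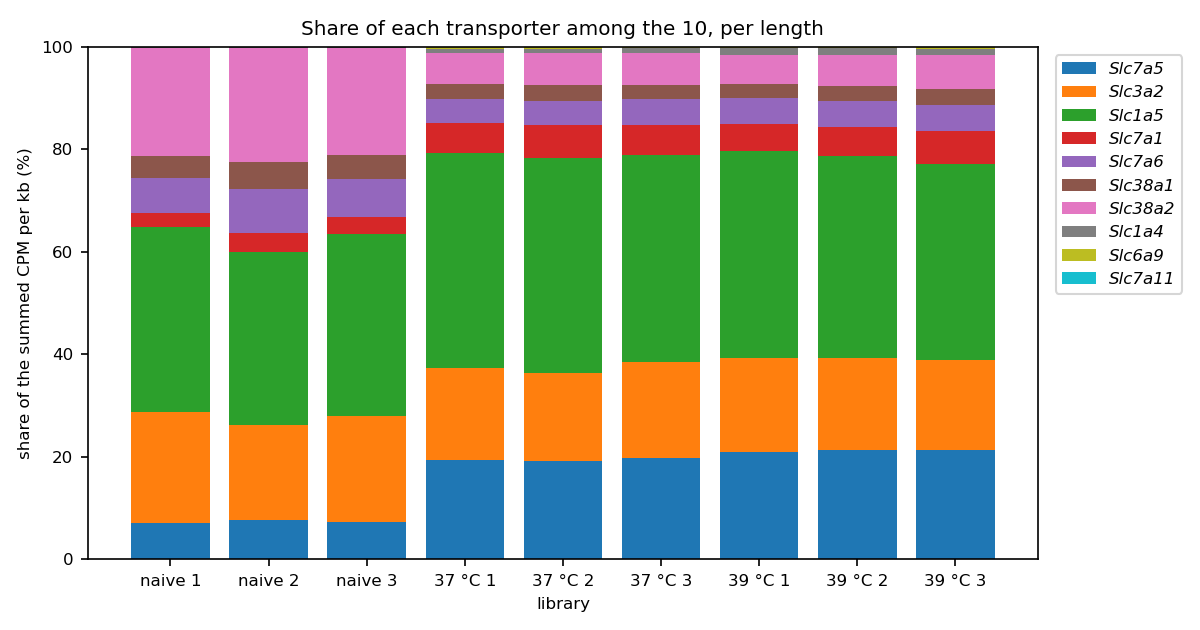
Share of the summed CPM per kb of exon that each of the 10 genes held, in percent, with 1 stacked bar per library. The share of Slc38a2 averages 21.5% in the naive bars and 6.21% in those at 37 °C, while that of Slc7a5 averages 7.32% and 19.4%.

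LAT1 works as a pair of the Slc7a5 and Slc3a2 chains, so the ratio of their transcripts was taken within each library, where it needs no scaling between libraries. Per kilobase of exon the ratio was 0.324, 0.409 and 0.354 in naive libraries, 1.09, 1.11 and 1.05 at 37 °C, and 1.14, 1.19 and 1.22 at 39 °C. The 3 groups did not overlap. The log2 ratio was 1.59 higher at 37 °C than in naive cells, 1.72 higher at 39 °C than in naive cells and 0.13 higher at 39 °C than at 37 °C. For each of these 3 comparisons the exact 2-sided permutation p was 0.1, the smallest that 3 against 3 libraries allow, so none could pass 0.05. Summed over the 3 light chains of this set, Slc7a5, Slc7a6 and Slc7a11, light chain transcripts per kb were 0.635 to 0.868 times those of Slc3a2 in naive libraries, 1.32 to 1.39 times at 37 °C and 1.41 to 1.51 times at 39 °C. The value at which the ratio crosses 1 depends on length: with the longest transcripts the geometric means were 0.303, 0.909 and 0.995, and the differences between groups were the same.

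**Figure D4:**
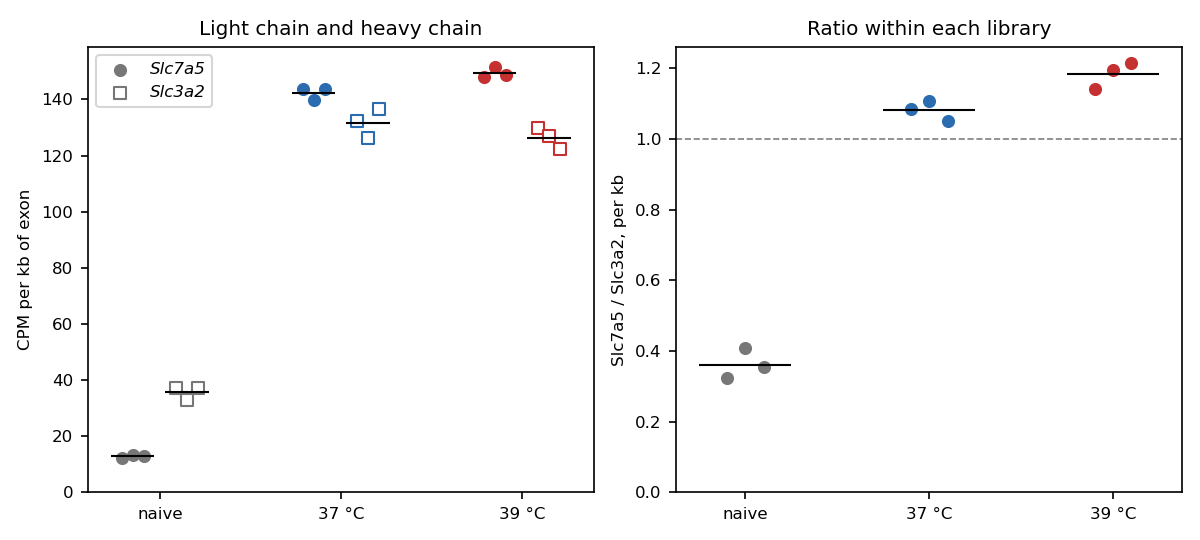
Slc7a5 and Slc3a2 in CPM per kb of exon, and their ratio, in every library, with 1 point per library lines at the mean of each group (the geometric mean for the ratio), and a dashed line at a ratio of 1. The ratio is 0.324 to 0.409 in naive libraries and 1.05 to 1.22 in the 6 activated ones.

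Cells activated at 39 °C and at 37 °C were compared to find what differed at a febrile temperature. No naive library is labelled with a temperature. An effect of 39 °C on activation therefore cannot be told apart from one on cells whether activated or not. Of the 10 genes, 2 were called higher, Slc1a4 and Slc7a11, and 0 lower, with 8 not called (edgeR). The same 2 had an unadjusted p under 0.05. The median of the 10 was -0.044, beside 0.004 over all genes. Of all genes tested, 0.135% were called higher and 0.623% lower. The libraries of 5 transporter genes did not overlap between the temperatures: Slc7a5, Slc1a4 and Slc7a11 were higher at 39 °C in every library, as were 10.7% of all genes, and Slc1a5 and Slc6a9 lower, as were 10.3%.

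For Slc1a4 the 39 °C libraries lay above all those at 37 °C. From the levels given above, 23.6 to 25.1 CPM at 37 °C and 33.8 to 36.6 CPM at 39 °C, the log2 fold change was 0.53 ± 0.09, or 1.44-fold, with a 95% interval of 0.33 to 0.72 (adjusted p = 0.0152, edgeR). With its sign, this is percentile 98.0 of the changes of all tested genes. Slc7a11 rose by 1.62 ± 0.30, or 3.08-fold, with an interval of 0.97 to 2.28 (adjusted p = 0.0290, edgeR), which is percentile 99.9 of the signed changes. It rests on 31 counts against 100, a pooled ratio of 3.11 with an exact counting interval of 2.06 to 4.81. Slc7a11 passed the count filter only through its 39 °C libraries, the group where it was called higher. Its place among the tested genes is thus not independent of this call. Dropping any 1 of the 6 activated libraries ended each call. The Slc1a4 values were then 0.50 to 0.55 (adjusted p = 0.0630 to 0.135) and the Slc7a11 values, which also lost the call without naive replicate 3, 1.45 to 1.86 (adjusted p = 0.0652 to 0.210). With only 2 libraries in a group, the counts of all genes called also dropped, to 7 to 8 higher and 30 to 43 lower, from 18 and 83.

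The other 8 genes were not called, and their intervals bound the size of any change. Slc7a5 differed by 0.07 with a 95% interval of -0.07 to 0.21, Slc3a2 by -0.06 with -0.21 to 0.10, and Slc7a6 by 0.01 with -0.17 to 0.20. For the glutamine carriers, Slc1a5 differed by -0.13 with an interval of -0.28 to 0.02 (adjusted p = 0.700, edgeR), Slc38a1 by -0.03 with -0.21 to 0.15, and Slc38a2 by -0.09 with -0.24 to 0.06. Slc7a1 differed by -0.12 with -0.38 to 0.14, and Slc6a9 by -0.28 with -0.62 to 0.06 (adjusted p = 0.735, edgeR). Of these 8 intervals, those of Slc7a1 and Slc6a9 are the widest. In simulated libraries of this design, 39 of 50 genes changed 2-fold and 27 of 50 changed 1.5-fold were called. At the smallest change simulated, 1.25-fold (median fitted size 0.295), only 4 of 50 were called, so such changes were mostly not called there. The changed genes were drawn at random from all tested genes, whatever their level, so these rates do not give the power for these 8 genes. B cell markers had 0 of 12 called between the temperatures (edgeR), beside 0.135% of all genes called higher and 0.623% lower. Of the 12, 2 had an unadjusted p under 0.05.

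The promoters of Slc1a4 and Slc7a11 are shown because these are the members that rose at 39 °C over 37 °C. Promoter windows of 250 bases before to 50 after a gene's start, from RefSeq (GRCm38.p6), were matched for 7 of the 10 genes, in 11 windows. Slc7a5, Slc1a5 and Slc38a1 were not matched. The windows were searched on both strands for TGATGNAA, the core of the element bound by ATF4 with a C/EBP partner, and for CACGTG, the E-box bound by Myc with Max. The stretches below run from 120 bases before the start to 20 after it, 5′ to 3′ on the gene's strand, with matches to TGATGNAA on either strand in capitals. The Slc1a4 stretch is chr11:20332694-20332833 and the Slc7a11 stretch chr3:50443594-50443733, both on the minus strand.
Slc1a4: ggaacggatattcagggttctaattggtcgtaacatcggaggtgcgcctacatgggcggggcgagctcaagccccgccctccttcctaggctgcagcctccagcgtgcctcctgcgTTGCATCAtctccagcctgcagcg
Slc7a11: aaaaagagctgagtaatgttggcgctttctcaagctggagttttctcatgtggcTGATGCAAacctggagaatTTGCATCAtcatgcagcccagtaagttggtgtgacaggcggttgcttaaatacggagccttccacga
Slc1a4 has 1 match, whose first base lies 4 bases before the start, and Slc7a11 has 2, at 66 and 47 bases before it, facing in opposite directions. Among the members' windows these 2 held TGATGNAA and 0 held CACGTG, beside 3.97% and 7.15% of all 32851 windows. A match describes the letters only, and is neither a bound site nor a cause.

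Genes of the ATF4 response, a list of 25 enzymes and regulators of the amino acid and stress response, were read beside the transporters, of which Slc7a11, Slc1a4 and others are known targets. Of 22 tested, 21 rose at 37 °C and 20 at 39 °C over naive cells, and 0 fell, with medians of 2.56 and 2.43. Of all genes, 30.9% were called higher at 37 °C and 29.2% at 39 °C. Both medians are the same with Chac1, which had no naive count, set at the bound that 3 counts in that whole group would give. Atf4 itself rose by 0.59 ± 0.08 at 37 °C (adjusted p = 3.72e-05, edgeR). The transcription factor gene Atf3 rose by 5.28 ± 0.12 and 5.66 ± 0.12, the serine synthesis gene Psat1 by 3.41 ± 0.09 and 3.51 ± 0.09, and Sesn2, a leucine-sensing brake on mTORC1, by 3.23 ± 0.09 and 3.22 ± 0.09.

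Between the temperatures 4 of these 22 genes were called higher and 1 lower, beside 0.135% and 0.623% of all genes. The median was 0.064, and 13 of the 22 had an unadjusted p under 0.05 (edgeR), in both directions. The share of all genes under that unadjusted threshold was not counted. As the list was chosen with earlier results of these data known, its counts are no test of it. Ddit3, which encodes the stress factor CHOP, held 38.8, 37.7 and 37.1 CPM at 37 °C and 59.9, 56.9 and 54.5 at 39 °C, a rise of 0.59 ± 0.08 (adjusted p = 0.00558, edgeR). Pck2, a mitochondrial gluconeogenic enzyme gene, held 69.5, 64.9 and 61.0 CPM and then 95.4, 89.1 and 94.7, a rise of 0.52 ± 0.07 (adjusted p = 0.00447, edgeR). The 39 °C libraries of both genes lay above all 37 °C libraries, as for 10.7% of all genes. Trib3, a pseudokinase gene, rose by 0.48 ± 0.08 (adjusted p = 0.0157, edgeR), and Atf3, named after its values were seen, by 0.38 ± 0.08 (adjusted p = 0.0453, edgeR). Phgdh, the first enzyme of serine synthesis, fell by 0.34 ± 0.07 (adjusted p = 0.0380, edgeR). Atf4 itself differed by 0.02 ± 0.08 (adjusted p = 0.962, edgeR). Without 1 library the list's count of higher genes was 2 to 4 and of lower genes 0 to 4. The Trib3 call was lost without any 37 °C library or 39 °C replicate 1 or 2, and those of Atf3 and Phgdh without naive replicate 3 or any activated library, or with a replicate block (adjusted p = 0.0612 and 0.0538, edgeR), whereas the Pck2 and Ddit3 calls held in every alternative run.

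**Figure D5:**
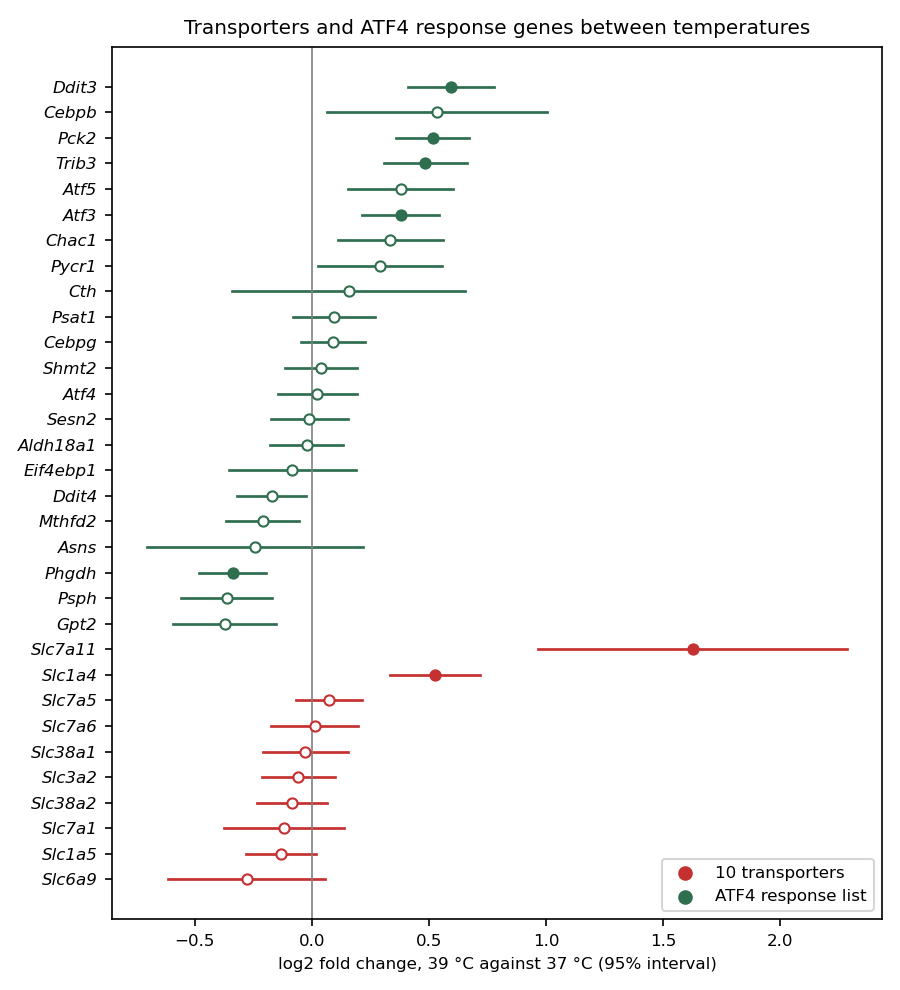
Log2 fold changes of the tested genes of the ATF4 list and of the 10 transporter genes at 39 °C against 37 °C, with 95% intervals, each group ordered by value and filled where called. Filled points above 0 are Slc7a11 (1.62), Slc1a4 (0.53), Ddit3 (0.59), Pck2 (0.52), Trib3 (0.48) and Atf3 (0.38), and the filled point below 0 is Phgdh (-0.34).

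Among other amino acid transporters of the plasma membrane both rises and falls were called. Of 39 listed genes 10 were tested, since the other 29 had at most 55 counts over the 9 libraries. At 37 °C 4 rose and 2 fell, with a median of -0.21, and at 39 °C 3 rose and 3 fell, with a median of -0.12, beside all-gene shares of 29.2% to 31.8% in each direction. Slc7a3, which encodes the cationic carrier CAT3, held 1.79, 1.75 and 1.58 CPM in naive libraries, 7.14, 6.69 and 6.91 at 37 °C, and 8.66, 9.70 and 9.69 at 39 °C. It rose by 2.02 ± 0.15 (adjusted p = 2.04e-07, edgeR) and 2.45 ± 0.14 (adjusted p = 3.19e-08, edgeR), and its difference of 0.43 ± 0.12 between the temperatures was not called (adjusted p = 0.201, edgeR). Slc38a10, of the SNAT family, rose by 0.44 and 0.38, and Slc16a10, the aromatic amino acid carrier TAT1, by 0.45 and 0.41. The large neutral amino acid carrier gene Slc43a2 (LAT4) fell by 0.52 and by 0.51. Slc38a6 fell by 0.38 at 37 °C, while its -0.14 at 39 °C was not called. At 39 °C Slc43a1 (LAT3) fell by 1.04 and Slc6a19, a neutral amino acid carrier, by 0.96. Both were low, with mean levels of 1.45 and 2.59 CPM in naive cells and 0.705 and 1.32 CPM at 39 °C. At 37 °C their values of -0.47 and -0.63 were not called. Between the temperatures 0 of 10 were called by edgeR and 0 by DESeq2, with 2 at an unadjusted p under 0.05 (edgeR). By edgeR 0.135% of all genes were called higher and 0.623% lower, so this is not read as particular to these carriers.

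Carriers of the lysosomal membrane, which return amino acids and small peptides to the cytosol, were called in either direction. Of 9 listed genes 8 were tested, with 1 higher and 3 lower in each activation contrast and medians of -0.03 and -0.04. Of all genes, 29.2% to 30.9% were called higher and 29.8% to 31.8% lower in these contrasts, so the counts are not read as particular to these carriers. Slc36a4 rose by 0.39 and 0.46. Slc38a9, the lysosomal arginine sensor of mTORC1, fell by 0.67 and by 0.74, the cystine exporter gene Ctns fell by 0.51 and by 0.61, and Slc36a1 (PAT1) fell by 0.47 and by 0.51. Between the temperatures 0 of 8 were called by edgeR or DESeq2, and 0 had an unadjusted p under 0.05. The edgeR calls over all genes were 0.135% higher and 0.623% lower.

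The machinery through which amino acids act on mTORC1 was read from 26 genes. At 37 °C 9 rose and 8 fell, with a median of 0.10, and at 39 °C 10 rose and 7 fell, with a median of 0.06, while upper-quartile scaling left 4 called higher at 39 °C. These counts lie near the shares of all genes, 30.9% higher and 31.8% lower at 37 °C and 29.2% and 29.8% at 39 °C. The folliculin partner gene Fnip2 rose by 3.40 ± 0.30 and 3.32 ± 0.31, and Seh1l, of the GATOR2 complex, by 0.50 at either temperature. Folliculin itself (Flcn) rose by 0.47 at 37 °C and 0.29 at 39 °C, and Sec13, of GATOR2, by 0.47 and 0.50. Sesn1, a relative of Sesn2, fell by 0.75 and by 0.73, the arginine sensor gene Castor1 by 1.23 and by 1.27, and the Ragulator subunit gene Lamtor4 by 0.99 and by 0.84. Between the temperatures 0 of 26 were called by edgeR or DESeq2, with 2 at an unadjusted p under 0.05 (edgeR). With 0.135% of all genes called higher and 0.623% lower by edgeR, this is not read as particular to these genes.

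The genes whose centred log2 CPM over the 9 libraries lay nearest to Slc7a5 were Pdcd1, which encodes the inhibitory receptor PD-1 (Euclidean distance 0.278), the one-carbon enzyme gene Shmt1 (0.280), the nuclear receptor gene Nr4a2 (0.311), the costimulatory receptor gene Slamf1 (0.329) and Tnfrsf9, which encodes 4-1BB (0.347). Nearest to Slc1a4 were the proline synthesis gene Pycr1 (0.560), the transcription factor genes Egr2 (0.762) and Egr3 (0.781), the growth factor gene Vegfa (0.884) and Irf4 (0.919). Their changes at 39 °C against 37 °C ranged from -0.15 for Vegfa to 0.44 for Egr3, all below the 0.53 of Slc1a4. Among the members the nearest pair was Slc7a6 and Slc38a1 (0.220), with rises of 1.41 and 1.35 at 37 °C, and then Slc3a2 and Slc1a5 (0.566). These distances describe 9 libraries that share 3 groups and carry no test.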

How the data were processed

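RNA sequencing libraries of mouse splenic CD4+ T cells, 3 per group, were analysed from 1 table per library of raw read counts per gene, as deposited. HISAT2, HTSeq, FastQC and DESeq2 are listed in the submitters' processing notes, beside GRCm38 as the build, with no version or role. The counter, annotation and strand setting of the tables are not given in the sources used here. Per the labels' protocols, TRIzol total RNA was prepared with a TruSeq RNA kit. Of 55573 identifiers 55480 matched GENCODE M21, which supplied symbols, lengths and coordinates, and 0 rows named no gene. Totals were 12647692 to 17605549 counts per library. Replicates differed by more than sampling noise, so none was counted as a duplicate. The chi-square per gene was 10.7 to 43.6 between naive libraries and 2.14 to 10.0 between activated libraries of 1 group. All 9 libraries shared 1 estimate of the spread in the fit.

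After filterByExpr (minimum count 10, minimum total 15) and TMM scaling, edgeR 4.0.16 in R 4.3.3 fitted the 9 libraries together, with 2-sided quasi-likelihood F tests adjusted by Benjamini-Hochberg over 13328 genes. The standard error is the size of the log2 fold change over the square root of F. The fit was tested on simulated data, where 45 of 50 genes changed 4-fold were called at 39 °C against 37 °C among 13052, with 5 unchanged genes called and 0 wrong directions. Alternatives were 2 other count filters, scaling by RLE, by upper quartiles or by library size, DESeq2 1.42.0, a replicate block, the 6 libraries of a contrast alone and leaving out each library.

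The members and lists were chosen with earlier results of these data known. Named genes are the 10 members, from each list up to 3 called genes per direction and contrast by adjusted p, and the 5 tested genes nearest in pattern to Slc7a5 and to Slc1a4, passing over predicted gene models. Log2 CPM for those distances used a prior count of 2. A planned comparison of the members' protein sequences was not run. Groups of 3 are too small for an outlier check.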

Additional observations from a re-analysis of the deposited data

How the results depend on the processing

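Of the members' values under 17 alternatives, 168 of 169 for 37 °C against naive, 160 of 170 for 39 °C against naive and 157 of 170 for 39 °C against 37 °C kept their direction and side of the threshold, and 0 reversed. Calls were lost for Slc38a2 against naive, and for Slc1a4 and Slc7a11 between the temperatures. With 1 library left out, members called higher were 10 to 10 at 37 °C, 9 to 10 at 39 °C and, between the temperatures, 0 to 2. The log2 ratio of Slc7a5 to Slc3a2 was then 1.51 to 1.68 (37 °C against naive), 1.64 to 1.81 (39 °C against naive) and 0.11 to 0.16 (39 °C against 37 °C).

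For the lists, leaving out 1 library gave 3 to 5 higher and 2 to 4 lower other plasma membrane transporters at 37 °C and 3 to 5 higher and 3 to 4 lower at 39 °C. Between the temperatures it gave 2 to 4 higher and 0 to 4 lower genes of the ATF4 list and 0 to 1 higher genes of mTORC1 sensing. With any count as the filter, 4 other plasma membrane transporters were lower at 37 °C (2 in the main analysis) and 2 genes of the ATF4 list were lower at 39 °C against 37 °C (1). Upper-quartile scaling gave 0 lysosomal carriers higher at 37 °C (1) and 4 genes of mTORC1 sensing higher at 39 °C against naive (10), and moved the share of higher among all calls from 49.2% to 39.4% at 37 °C and from 49.5% to 38.6% at 39 °C. The 6 libraries alone gave 4 lower genes of the ATF4 list (1) and 1 higher gene of mTORC1 sensing (0) between the temperatures. The causes were not tested. Upper-quartile scaling also ended the calls of Slc36a4 at 37 °C (0.26) and Slc16a10 at 39 °C (0.28), and DESeq2 that of Slc43a1 at 39 °C (-1.05).

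Between the temperatures the calls over all genes numbered 18 higher and 83 lower. The counts were 43 and 133 with any count, 38 and 113 with DESeq2, 136 and 265 in the 6 libraries alone, 89 and 202 without naive replicate 1, and 30 and 122 without naive replicate 2. Higher calls were 17.8% of all calls in the main analysis and 33.9% in the 6 libraries alone.

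Deviations of same-numbered libraries correlated at -0.171 to 0.33, above 0.1 in 2 of 9 pairs. Differently numbered libraries of different groups correlated at -0.338 to 0.362, so this check cannot tell whether the numbers pair the samples. With the replicate block, 10, 10 and 2 members were higher for 37 °C against naive, 39 °C against naive and 39 °C against 37 °C, and 0 genes of the ATF4 list were lower between the temperatures (1 without it), where Phgdh stood at -0.34 (adjusted p = 0.0538) and Atf3 at 0.38 (adjusted p = 0.0612).

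Depth limits Slc7a11 and Slc6a9 most, with 2 and 5 counts over the naive group.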
